A study of Homo sapiens with 18 samples.

Results

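Genes of chaperone-assisted selective autophagy and of aggresome transport were followed by symbol in a count table of 28394 genes. They were HSPB8, its relative HSPB1, BAG3, STUB1, SQSTM1 and HDAC6. All 6 passed the filter on low counts, which left 15447 genes for testing. The cells were HEK293T, a long-established line from human embryonic kidney, made into 3 stable lines carrying GFP joined through the self-cleaving P2A peptide to ChFP (a red fluorescent protein, the negative control), to poly-adenylate, or to a run of 102 repeats of proline and arginine (102xPR). The PR protein is 1 of the dipeptide repeat proteins made from the C9orf72 expansion of ALS and frontotemporal dementia, and the stated question was whether stalling of ribosomes on poly-adenylate and on poly-PR gives similar transcriptional responses. Every line carried its construct under a Tet-inducible promoter and was measured uninduced and after 48 h with doxycycline (500 ng/μl as the labels give it), which gave 6 groups of 3 poly(A) RNA libraries. Because the uninduced cells had no doxycycline, the drug and the construct change together within a line. The induced ChFP and induced poly-adenylate groups both share the drug with induced 102xPR, and ChFP is the negative control. Each construct is represented by a single line, so the line and the construct cannot be told apart in comparisons between lines. Whether a line is a clone, and whether replicates 1 to 3 were separate cultures, could not be learned from the sources used here, and the p-values therefore cover just the spread among these libraries, which may be technical.

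In this pathway HSPB8, a small heat shock protein, holds misfolded clients in soluble form and binds the co-chaperone BAG3, which bridges it to HSP70. The ubiquitin ligase STUB1, also called CHIP, marks the HSP70-bound client, and the receptor SQSTM1 joins ubiquitin-marked cargo to ATG8 proteins on the forming autophagosome. HDAC6, a deacetylase that binds ubiquitin and dynein, takes part in carrying such cargo along microtubules to the aggresome. HSPB1 is a related small heat shock protein that also binds BAG3. The complex is best known from muscle, where it turns over proteins damaged by tension, and from motor neurons, where HSPB8 promotes the clearance of misfolded proteins linked to ALS.

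The 18 libraries held 15020739 to 27331102 counts each, and the common biological coefficient of variation was 5.75%. The first principal component (57.8% of the variance) separated the 3 libraries of induced 102xPR from all others. The second (7.62%) split the libraries into 8 and 10, which divided some groups and left others whole. The set of 8 held replicates 1 and 2 of induced 102xPR, replicates 2 and 3 of uninduced poly-adenylate, replicate 3 of induced ChFP and all 3 replicates of uninduced ChFP. These sets were found from the data and no label names them. Results that depended on them are given with the set as a covariate or within the set of 10. The summed level of 7 HEK293T marker genes ran from 659 to 749 CPM in the libraries of the 5 other groups and from 820 to 846 CPM in induced 102xPR. Of the 6 tested there, VIM rose on 102xPR induction (0.52 ± 0.07, from 286 to 411 CPM), PAX2 fell (-0.32 ± 0.12, from 7.70 to 6.15 CPM) and 4 did not pass, and LHX1 was too low to test. The summed level of 10 marker genes of other cell types was 3.61 to 5.74 CPM over all groups, and MYOG was at 0 in every library. Of the 4 tested, ALB rose (5.66 ± 0.67, from 0.0133 to 0.998 CPM), ACTA1 rose (0.58 ± 0.25, from 0.979 to 1.48 CPM), COL3A1 fell (-1.54 ± 0.19, from 2.87 to 0.992 CPM) and DES did not pass. The part of these markers in the results was not tested. Reads on the reporter transcripts themselves were not analysed here.

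The sequence upstream of the 3 chaperone-complex genes is shown because HSPB8 rose on 102xPR induction while HSPB1 and BAG3 did not pass the test, and the heat shock factors bind such sequence. A promoter window, from 250 bases before to 50 after the start, was matched for 5 of the 6 genes (9 windows, RefSeq, GRCh38.p14), not for STUB1. The 250 bases before the start are printed 5′ to 3′ on the plus strand, with capitals for a match to GAANNTTC, a head-to-head pair of heat shock units. The windows are chr12:119178681-119178930 for HSPB8, chr7:76302423-76302672 for HSPB1 and chr10:119651130-119651379 for BAG3.
HSPB8: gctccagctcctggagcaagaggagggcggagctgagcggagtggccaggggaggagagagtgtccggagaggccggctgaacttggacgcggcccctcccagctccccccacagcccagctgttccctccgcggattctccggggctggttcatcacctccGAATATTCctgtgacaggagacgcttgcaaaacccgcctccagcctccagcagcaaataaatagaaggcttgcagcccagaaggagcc
HSPB1: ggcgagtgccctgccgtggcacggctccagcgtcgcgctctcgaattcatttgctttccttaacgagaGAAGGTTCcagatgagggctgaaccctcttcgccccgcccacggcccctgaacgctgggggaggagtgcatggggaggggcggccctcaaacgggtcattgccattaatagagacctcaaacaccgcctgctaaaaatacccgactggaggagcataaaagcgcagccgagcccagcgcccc
BAG3: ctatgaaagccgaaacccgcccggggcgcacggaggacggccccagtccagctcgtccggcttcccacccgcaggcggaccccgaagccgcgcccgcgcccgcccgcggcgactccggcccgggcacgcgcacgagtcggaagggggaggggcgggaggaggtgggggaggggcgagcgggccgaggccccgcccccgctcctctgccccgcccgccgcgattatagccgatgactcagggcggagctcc

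HSPB8 held GAATATTC with its first base 88 bases before the start and a further match, GAAGTTTC, inside the first bases of the transcript. HSPB1 held GAAGGTTC with its first base 182 bases before the start. The BAG3 window held no match to any of the 5 motifs searched on both strands. GAANNTTC reads the same on both strands and occurred in 6.77% of 35116 windows of 300 bases. TTCNNGAA, the tail-to-tail pair (7.74% of windows), TGATGNAAN for ATF4 (3.61%) and CACGTG for TFEB and TFE3 (7.26%) matched none of the 9 windows. TGACNNNGC, the antioxidant response element (13.3%), matched HSPB1 after its start and 1 of the 3 HDAC6 windows, and none of the 3 SQSTM1 windows. These are matches of letters in a window and show neither binding nor use. The search took exact matches within 300 bases. A gene without one, such as BAG3, is therefore not shown to lack such elements in another form or further away.

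The largest difference among the 6 genes was in HSPB8 (chr12:119178931-119194746, plus strand). In the uninduced 102xPR line its level was 1.73, 1.28 and 1.89 CPM in replicates 1 to 3, from 47, 32 and 35 counts. In the induced line it was 65.6, 56.7 and 54.7 CPM, from 1410, 1355 and 1100 counts. All 3 induced libraries lay far above the 3 uninduced ones and above every library of the other groups. The rise was 36.4-fold, a log2 fold change of 5.19 ± 0.15 (SE, n = 3 against 3; edgeR adjusted p = 2.54e-17, 95% interval 4.87 to 5.50), the 27th largest of 15447. In bulk RNA, more cells that express HSPB8 and more HSPB8 RNA per cell cannot be told apart.

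The other lines did not show this. Uninduced ChFP libraries held 1.45, 1.72 and 1.94 CPM of HSPB8 and induced ones 1.83, 1.16 and 0.794 CPM. The groups overlapped, with a log2 fold change of -0.40 ± 0.26 (adjusted p = 0.399, 95% interval -0.94 to 0.13). Uninduced poly-adenylate libraries held 1.97, 2.21 and 1.76 CPM and induced ones 2.62, 1.87 and 1.58 CPM. These also overlapped, at 0.04 ± 0.23 (adjusted p = 0.949, 95% interval -0.43 to 0.51). The response of HSPB8 in 102xPR exceeded that in ChFP by 5.59 ± 0.32 on the log2 scale (adjusted p = 7.53e-12) and that in poly-adenylate by 5.15 ± 0.30 (adjusted p = 7.67e-12), each by an interaction term. Ordered by mean, HSPB8 was at 1.26 ± 0.525 CPM (SD, n = 3) in induced ChFP, 1.63 ± 0.314 in uninduced 102xPR, 1.70 ± 0.243 in uninduced ChFP, 1.98 ± 0.225 in uninduced poly-adenylate, 2.02 ± 0.537 in induced poly-adenylate and 59.0 ± 5.82 in induced 102xPR. Each of the first 5 overlapped its neighbour in that order, and only induced 102xPR stood clear.

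**Figure D1:**
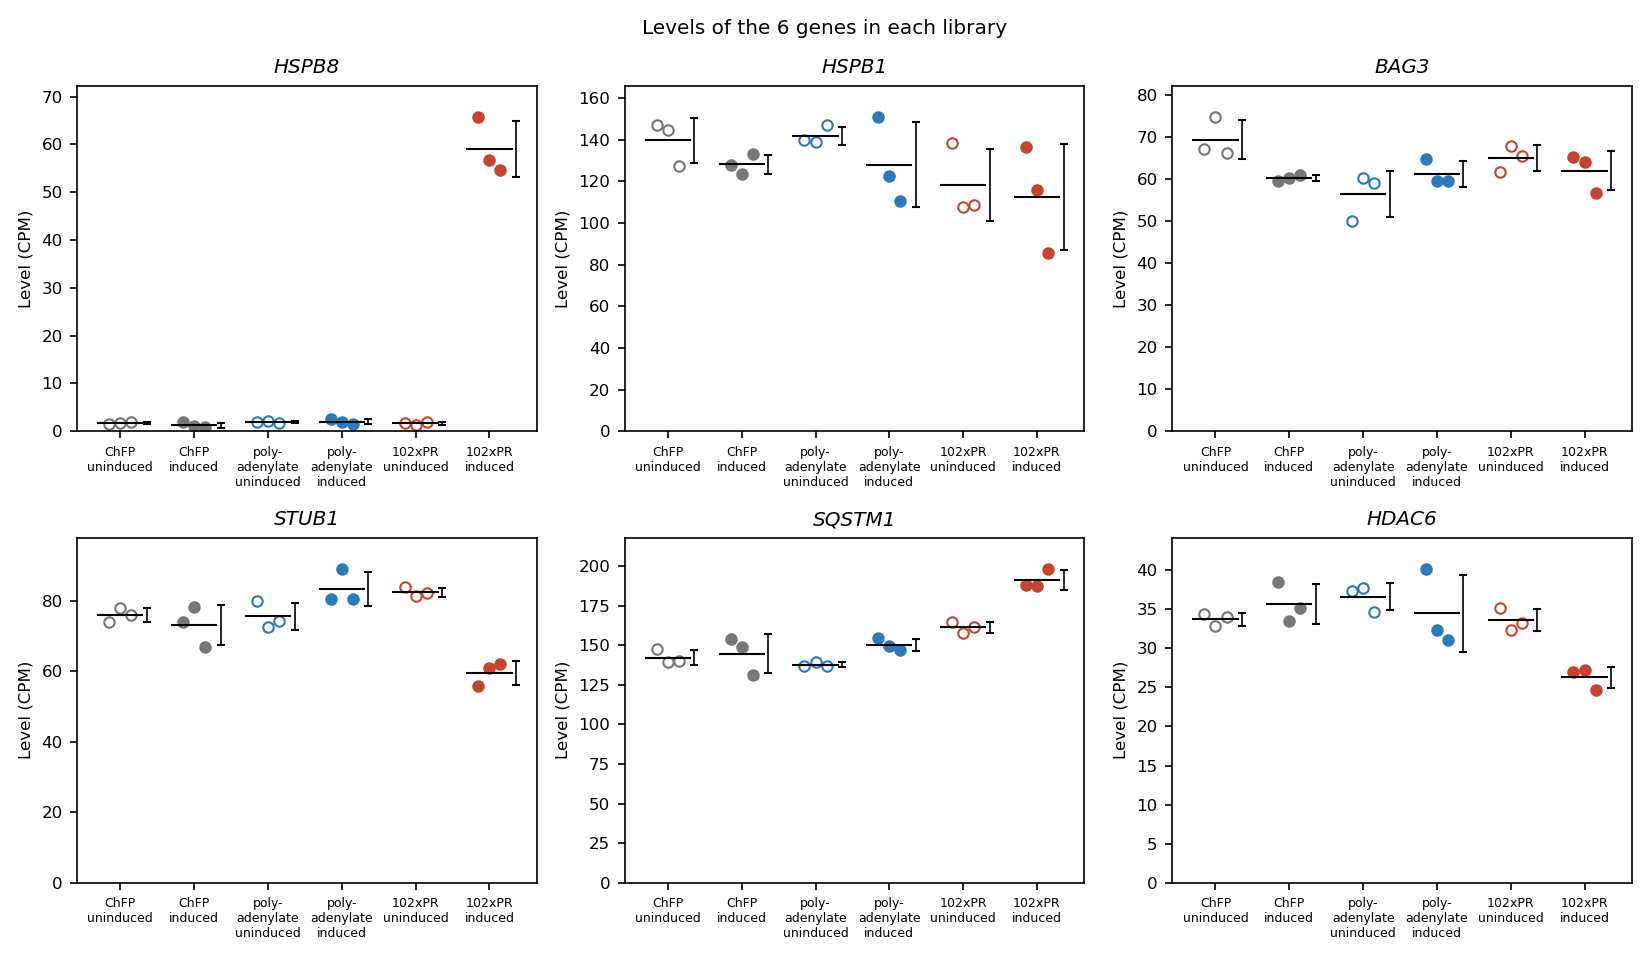
Level of each gene (CPM on a linear axis from 0) in every library of the 6 groups, with open points for uninduced and filled points for induced cells, a line at the group mean and a bar for ± 1 SD (n = 3). HSPB8 lay between 54.7 and 65.6 CPM in induced 102xPR and at or below 2.62 CPM elsewhere, STUB1 and HDAC6 were lowest in induced 102xPR, and SQSTM1 was highest there.

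HSPB1 (chr7:76302673-76304292), the related small heat shock protein, did not pass the test on induction of 102xPR. It was at 138, 108 and 109 CPM in the uninduced and 136, 116 and 85.5 CPM in the induced 102xPR libraries. The groups overlapped, and induced replicate 3 was the lowest of all 18 libraries. The log2 fold change was -0.07 ± 0.15 (adjusted p = 0.695, 95% interval -0.40 to 0.26). The upper bound of that interval lies far below the change in HSPB8. The sign was not stable: the value was 0.09 (adjusted p = 0.558) without induced replicate 3, 0.06 (0.785) without uninduced replicate 1 and -0.23 (0.190) without induced replicate 1. With the library set as a covariate it was -0.23 (adjusted p = 0.274), within the set of 10 it was -0.48 (0.138), and with the set and the replicate number both in the model a fall was called, at -0.29 (0.00240). The ChFP line gave -0.13 ± 0.15 (adjusted p = 0.682), with 147, 145 and 127 CPM uninduced and 128, 124 and 133 CPM induced. The poly-adenylate line gave -0.15 ± 0.15 (adjusted p = 0.652), with 140, 139 and 147 CPM uninduced and 151, 123 and 111 CPM induced. HSPB1 group means ran from 113 ± 25.6 CPM in induced 102xPR to 142 ± 4.38 CPM in uninduced poly-adenylate, and every neighbouring pair overlapped.

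BAG3 (chr10:119651380-119677819), the co-chaperone that binds HSPB8, did not pass the test on induction of 102xPR. It was at 61.6, 67.8 and 65.6 CPM uninduced and 65.2, 64.2 and 56.8 CPM induced. These ranges overlapped, and the log2 fold change was -0.07 ± 0.07 (rounded from -0.065; adjusted p = 0.404, 95% interval -0.20 to 0.07). With the library set as a covariate it was -0.17 (adjusted p = 0.0159), and within the set of 10, with 1 induced library, -0.20 (adjusted p = 0.0312), so a small fall of BAG3 was called under those settings. In ChFP, BAG3 was at 67.2, 74.7 and 66.2 CPM uninduced and 59.7, 60.2 and 61.0 CPM induced, groups that did not overlap, at -0.20 ± 0.07 (adjusted p = 0.105, 95% interval -0.34 to -0.06). In poly-adenylate it was at 50.1, 60.2 and 59.0 CPM uninduced and 64.8, 59.6 and 59.5 CPM induced, at 0.12 ± 0.07 (adjusted p = 0.362). BAG3 means ran from 56.4 ± 5.54 CPM in uninduced poly-adenylate to 69.4 ± 4.65 CPM in uninduced ChFP, with each neighbouring pair overlapping.

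Because HSPB8 and BAG3 act in a common complex, their levels were set side by side per exon length (CPM per kb of the union of annotated exons, 2.152 kb for HSPB8, 2.571 kb for BAG3 and 1.06 kb for HSPB1). In uninduced 102xPR, HSPB8 was at 0.758 ± 0.146 and BAG3 at 25.3 ± 1.21 CPM per kb. The ratio of BAG3 to HSPB8 was 29.1 to 44.3 over those 3 libraries and 20.7 to 64.3 over the other groups outside induced 102xPR. In induced 102xPR, HSPB8 was at 27.4 ± 2.70 and BAG3 at 24.1 ± 1.78 CPM per kb, and the ratio was 0.831 to 0.948. HSPB8 RNA thus went from far below BAG3 RNA to slightly above it per exon length in each of the 3 induced libraries. That order rests on the division by length, since in CPM HSPB8 was below BAG3 in induced replicates 2 and 3 and about level with it in replicate 1. HSPB1 remained the most abundant of the trio per length, at 112 ± 16.4 CPM per kb uninduced and 106 ± 24.2 induced, and HSPB8 reached 0.237 to 0.315 of it. RNA levels say nothing of the amounts of the proteins.

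**Figure D2:**
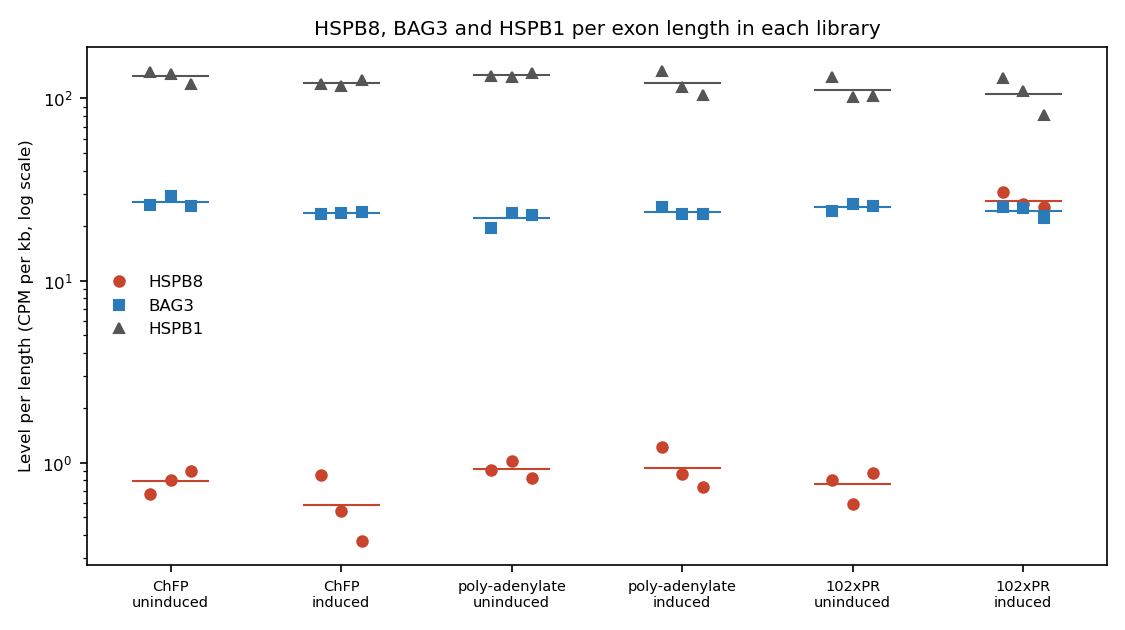
HSPB8, BAG3 and HSPB1 per exon length (CPM per kb, log axis) in every library of the 6 groups, with a line at each group mean. HSPB8 was at 0.758 CPM per kb in uninduced and 27.4 in induced 102xPR, where it met BAG3 at 24.1, while HSPB1 stayed above both.

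STUB1 (chr16:680410-682801), the ubiquitin ligase, fell on induction of 102xPR. It was at 83.7, 81.2 and 82.0 CPM uninduced and 55.7, 60.8 and 62.1 CPM induced. All 3 induced libraries were below all 15 others. The log2 fold change was -0.47 ± 0.06 (adjusted p = 2.74e-07, 95% interval -0.59 to -0.34). The ChFP line gave -0.06 ± 0.06 (adjusted p = 0.623) from 73.9, 78.0 and 75.9 CPM uninduced and 74.0, 78.1 and 66.8 CPM induced. The poly-adenylate line gave 0.14 ± 0.06 (adjusted p = 0.218) from 79.8, 72.6 and 74.2 CPM uninduced and 80.5, 89.0 and 80.5 CPM induced, groups that did not overlap. The response of STUB1 in 102xPR was lower than in ChFP by 0.41 and than in poly-adenylate by 0.61 on the log2 scale, interaction terms of -0.41 ± 0.08 (adjusted p = 0.000231) and -0.61 ± 0.08 (adjusted p = 1.69e-06). With the library set as a covariate the term against ChFP was smaller, at -0.23 (adjusted p = 0.0284), and that against poly-adenylate was -0.43 (adjusted p = 9.05e-05). Among means, induced 102xPR (59.6 ± 3.42 CPM) stood clear below induced ChFP (73.0 ± 5.72), uninduced poly-adenylate (75.5 ± 3.81) and uninduced ChFP (75.9 ± 2.06), which overlapped each other. Uninduced 102xPR (82.3 ± 1.32) and induced poly-adenylate (83.3 ± 4.88) lay above and overlapped each other.

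SQSTM1 (chr5:179806393-179838078), the autophagy receptor, rose by a small amount. It was at 165, 158 and 161 CPM in the uninduced and 188, 187 and 198 CPM in the induced 102xPR libraries. The 3 induced libraries were the highest of all 18. The log2 fold change was 0.25 ± 0.05 (adjusted p = 0.000140, 95% interval 0.14 to 0.35), a rise of 1.19-fold. In ChFP it was 0.03 ± 0.05 (adjusted p = 0.815), from 147, 139 and 140 CPM uninduced and 154, 149 and 131 CPM induced. In poly-adenylate it was 0.12 ± 0.05 (adjusted p = 0.206), from 137, 140 and 137 CPM uninduced and 154, 150 and 147 CPM induced, groups that did not overlap. The response of SQSTM1 in 102xPR exceeded that in ChFP by 0.22 ± 0.07 (adjusted p = 0.0109), and by 0.34 (adjusted p = 0.000337) with the library set as a covariate. Against poly-adenylate the difference was 0.12 ± 0.07 (adjusted p = 0.149, 95% interval -0.03 to 0.27), so the 102xPR and poly-adenylate responses of SQSTM1 were not shown to differ. That difference was 0.24 (adjusted p = 0.00806) with the covariate.

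SQSTM1 also differed between lines before induction. Uninduced 102xPR (161 ± 3.37 CPM) lay above uninduced poly-adenylate (138 ± 1.56), at 0.23 ± 0.05 (adjusted p = 0.00944). It lay above uninduced ChFP (142 ± 4.55) at 0.18 ± 0.05 (adjusted p = 0.0235), but that call was lost without ChFP uninduced replicate 1 (0.21, adjusted p = 0.0511), 2 (0.17, 0.0927) or 3 (0.17, 0.0741), without 102xPR uninduced replicate 1 (0.17, 0.0827) or 3 (0.18, 0.0661), and once the library set entered as a covariate (0.09, 0.721). In the induced cells, SQSTM1 in 102xPR (191 ± 6.09 CPM) exceeded ChFP (145 ± 12.1) by 0.40 ± 0.05 (adjusted p = 2.09e-07). The change within the 102xPR line, 0.25, thus stood beside a difference of 0.18 between the same lines before induction.

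HDAC6 (chrX:48801398-48824982), the deacetylase of aggresome transport, fell. It was at 35.2, 32.4 and 33.2 CPM in the uninduced and 27.0, 27.2 and 24.7 CPM in the induced 102xPR libraries. The 3 induced libraries were the lowest of all 18. The log2 fold change was -0.35 ± 0.08 (adjusted p = 0.000411, 95% interval -0.52 to -0.19). The ChFP line gave 0.08 ± 0.08 (adjusted p = 0.590) from 34.4, 32.8 and 34.0 CPM uninduced and 38.5, 33.5 and 35.1 CPM induced. The poly-adenylate line gave -0.08 ± 0.08 (adjusted p = 0.610) from 37.4, 37.8 and 34.6 CPM uninduced and 40.2, 32.3 and 31.1 CPM induced. The HDAC6 response in 102xPR was below that in ChFP, at -0.43 ± 0.11 (adjusted p = 0.00197). Against poly-adenylate it was -0.27 ± 0.11 (adjusted p = 0.0419), a call that was lost without induced poly-adenylate replicate 1 (-0.15, adjusted p = 0.183), uninduced poly-adenylate replicate 3 (-0.23, 0.102), induced 102xPR replicate 3 (-0.22, 0.104), uninduced 102xPR replicate 1 (-0.24, 0.0964) or replicate 3 (-0.26, 0.0712). It was also lost by DESeq2 (-0.26, adjusted p = 0.0626), with library totals (-0.24, 0.0772), upper-quartile factors (-0.25, 0.0584) or a minimum count of 50 (-0.23, 0.0799), with only the groups compared (-0.26, 0.0607), with the library set as a covariate (-0.28, 0.0910) and within the set of 10 (-0.33, 0.157). HDAC6 means in the 5 other groups ran from 33.6 ± 1.44 CPM in uninduced 102xPR to 36.6 ± 1.71 in uninduced poly-adenylate, each overlapping its neighbour.

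**Figure D3:**
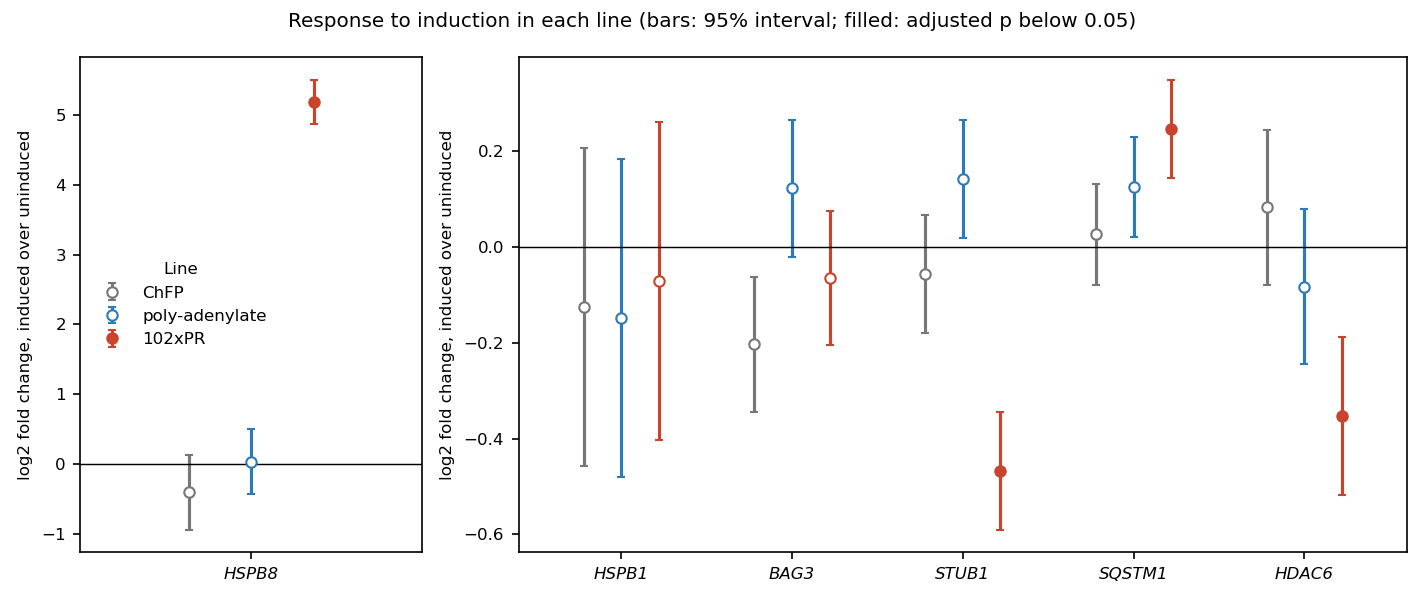
log2 fold change of each gene on induction in the ChFP, poly-adenylate and 102xPR lines (points, filled where the adjusted p was below 0.05; bars, 95% interval), with HSPB8 on an axis of its own. The filled points are all in 102xPR: HSPB8 at 5.19, SQSTM1 at 0.25, HDAC6 at -0.35 and STUB1 at -0.47.

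Counted together, 2 of the 6 genes rose (HSPB8, SQSTM1), 2 fell (STUB1, HDAC6) and 2 did not pass the test (HSPB1, BAG3) when 102xPR was induced. Of all genes tested, 67.3% passed in that comparison (33.8% up and 33.4% down), so a count of 4 of 6 is near the background. In 4 of the 6 the induced and uninduced libraries did not overlap, beside 70.0% of all genes. The median log2 fold change of the 6 was -0.07, against -0.01 over all genes. What set HSPB8 apart was the size of its change and not that it passed. With the library set as a covariate the 4 genes were still called, HSPB8 at 5.15, SQSTM1 at 0.31, STUB1 at -0.38 and HDAC6 at -0.36.

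On induction of poly-adenylate 0 of the 6 genes passed edgeR's test (1.08% of all genes did), with 2 at an unadjusted p under 0.05, and DESeq2 called 0. On induction of ChFP 0 of the 6 passed (2.01% of all genes), with 1 at an unadjusted p under 0.05, and DESeq2 called 0. The interaction terms between 102xPR and ChFP were called for 4 genes, 2 higher and 2 lower (58.3% of all genes), and those between 102xPR and poly-adenylate for 3, 1 higher and 2 lower (58.4%). Between poly-adenylate and ChFP 0 of the 6 responses differed by edgeR's test (0.0259% of all genes), with 2 at an unadjusted p under 0.05 and 0 by DESeq2. The comparisons with 102xPR share its libraries and are not separate evidence. Counts at an unadjusted p under 0.05 or by DESeq2, here and below, have no share of all genes beside them. They are not results about these genes.

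Among induced cells, 102xPR against ChFP gave 2 genes higher and 2 lower (66.8% of all genes called), and 102xPR against poly-adenylate the same count (69.2%). HSPB8 was higher by 5.53 ± 0.16 and 4.87 ± 0.15 (log2), STUB1 was at -0.29 ± 0.06 and -0.49 ± 0.06, and HDAC6 at -0.44 ± 0.08 and -0.39 ± 0.08. SQSTM1 was higher by 0.40 ± 0.05 and 0.35 ± 0.05. Between induced poly-adenylate and induced ChFP 0 of the 6 passed edgeR's test (0.939% of all genes), with 2 at an unadjusted p under 0.05 and 0 by DESeq2. Without ChFP induced replicate 2, STUB1 was called there at 0.24 (adjusted p = 0.0459).

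Among uninduced cells, SQSTM1 was the 1 gene of the 6 called in 102xPR against ChFP (12.2% of all genes) and the 1 called against poly-adenylate (7.82%). BAG3 in uninduced 102xPR against poly-adenylate was at 0.21 ± 0.07 (adjusted p = 0.0636), and DESeq2 called it (0.21, adjusted p = 0.0459). In uninduced poly-adenylate against ChFP 0 of the 6 passed edgeR's test (0.104% of all genes), with 1 at an unadjusted p under 0.05. DESeq2 called BAG3 there, at -0.31 (adjusted p = 0.0256).

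The cargo-handling genes were also set side by side per exon length. STUB1 went from 50.2 ± 0.805 to 36.3 ± 2.08 CPM per kb on induction of 102xPR. Its ratio to BAG3 went from 1.88 to 2.13 uninduced to 1.34 to 1.72 induced. Outside the 102xPR line that ratio was 1.64 to 2.50. Uninduced ChFP, at 1.64 to 1.80, overlapped induced 102xPR, and the other groups there lay above it. SQSTM1 went from 46.4 ± 0.969 to 55.0 ± 1.75 CPM per kb and HDAC6 from 5.91 ± 0.253 to 4.63 ± 0.241. The ratio of SQSTM1 to HDAC6 was 7.65 to 7.97 in uninduced 102xPR, 11.3 to 13.1 in induced 102xPR and 5.99 to 7.72 in the other groups. The 3 induced 102xPR libraries were above all 15 others in that ratio. This follows from SQSTM1 being highest and HDAC6 lowest in those libraries, and is not a separate observation.

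The partners of the 6 genes were described by 96 genes in 6 lists, of which 86 were tested. On induction of 102xPR 35 rose, 26 fell and 25 did not pass. That is 70.9% called beside 67.3% of all genes, with 33.8% of all genes rising and 33.4% falling. The median log2 fold change was 0.01 against -0.01 over all genes. On induction of poly-adenylate 0 of the 86 passed edgeR's test, with 19 at an unadjusted p under 0.05 and 4 called by DESeq2. On induction of ChFP 0 passed, with 16 at an unadjusted p under 0.05 and 2 called by DESeq2. Of all genes, 1.08% and 2.01% passed edgeR's test in these 2 inductions. The shares of all genes at an unadjusted p under 0.05 or by DESeq2 were not worked out, so those counts cannot be read as an excess. Within the set of 10 libraries 27 rose and 23 fell on 102xPR induction.

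Of 8 other genes listed here by name as small heat shock proteins, 3 were tested. On 102xPR induction 0 rose and 1 fell (33.3% called, all genes 67.3%). The one that fell was HSPB11, at -0.71 ± 0.07, from 46.9 to 28.7 CPM. CRYAA was at 0 in all 18 libraries. HSPB6 and HSPB9, the others tested, were near the floor, at or below 0.652 and 0.670 CPM in every library. HSPB8 was the only gene called higher among HSPB8, HSPB1 and the 3 tested here.

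Of 19 tested BAG proteins and HSP70 partners, 6 rose and 8 fell (73.7% called, all genes 67.3%), with a median of -0.10. DNAJB1, a J-domain co-chaperone of HSP70 and a classical heat shock gene, fell by 0.86 ± 0.07 on the log2 scale, from 184 to 102 CPM. DNAJB2, a J-domain protein that passes clients to the proteasome, rose by 0.67 ± 0.09, from 38.2 to 61.0 CPM, and DNAJB5 rose by 0.97 ± 0.12, from 9.70 to 19.0 CPM. HSPA14, a ribosome-associated HSP70, rose by 0.49 ± 0.05. HSPA8, the constitutive HSP70 and a partner of BAG3, was chosen after its values were seen and fell by 0.80 ± 0.11, from 1779 to 1019 CPM (adjusted p = 1.52e-05). HSPA1A and HSPA1B are near-identical copies whose reads the counting may not place, and they were not tested.

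Of 14 tested autophagy receptors and ATG8 proteins, 8 rose and 3 fell (78.6% called, all genes 67.3%), with a median of 0.14. NBR1, a receptor related to SQSTM1, rose by 0.46 ± 0.04, from 95.7 to 132 CPM, and the ATG8 protein GABARAPL1 rose by 0.73 ± 0.07, from 36.6 to 60.6 CPM. The shuttle receptor UBQLN1 rose by 0.40 ± 0.06. GABARAPL2, also an ATG8 protein, went the other way at -0.49 ± 0.06.

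Of 19 tested genes of aggresome transport and ubiquitin handling, 8 rose and 6 fell (73.7% called, all genes 67.3%), with a median of -0.00. PLAA, a ubiquitin-binding partner of VCP, rose by 0.46 ± 0.05, and the dynein light intermediate chain DYNC1LI1 rose by 0.35 ± 0.05. VCP, the segregase, was at -0.36 ± 0.05 and the dynein light chain DYNLL1 at -0.40 ± 0.05, and both fell. Within the set of 10 libraries the counts for this list were 4 up and 3 down.

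Of 18 tested tension-sensing clients and partners of BAG3, 6 rose and 6 fell (66.7% called, all genes 67.3%), with a median of 0.02. AMOTL2, a scaffold of the Hippo pathway, rose by 1.27 ± 0.07, from 17.2 to 41.6 CPM, and the Hippo kinase LATS1 by 0.91 ± 0.07. TSC1, a subunit of the complex that restrains mTORC1, rose by 0.68 ± 0.06.

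Of 13 tested regulators, 7 rose and 2 fell (69.2% called, all genes 67.3%), with a median of 0.17. TFE3, a transcription factor of lysosomal genes, rose by 1.12 ± 0.05, from 59.0 to 129 CPM. HSF1, the main heat shock transcription factor, rose by 0.44 ± 0.05, from 118 to 160 CPM, and HSF2 by 0.73 ± 0.05. ULK1, the kinase that starts autophagy, was at -0.67 ± 0.05 and fell.

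**Figure D4:**
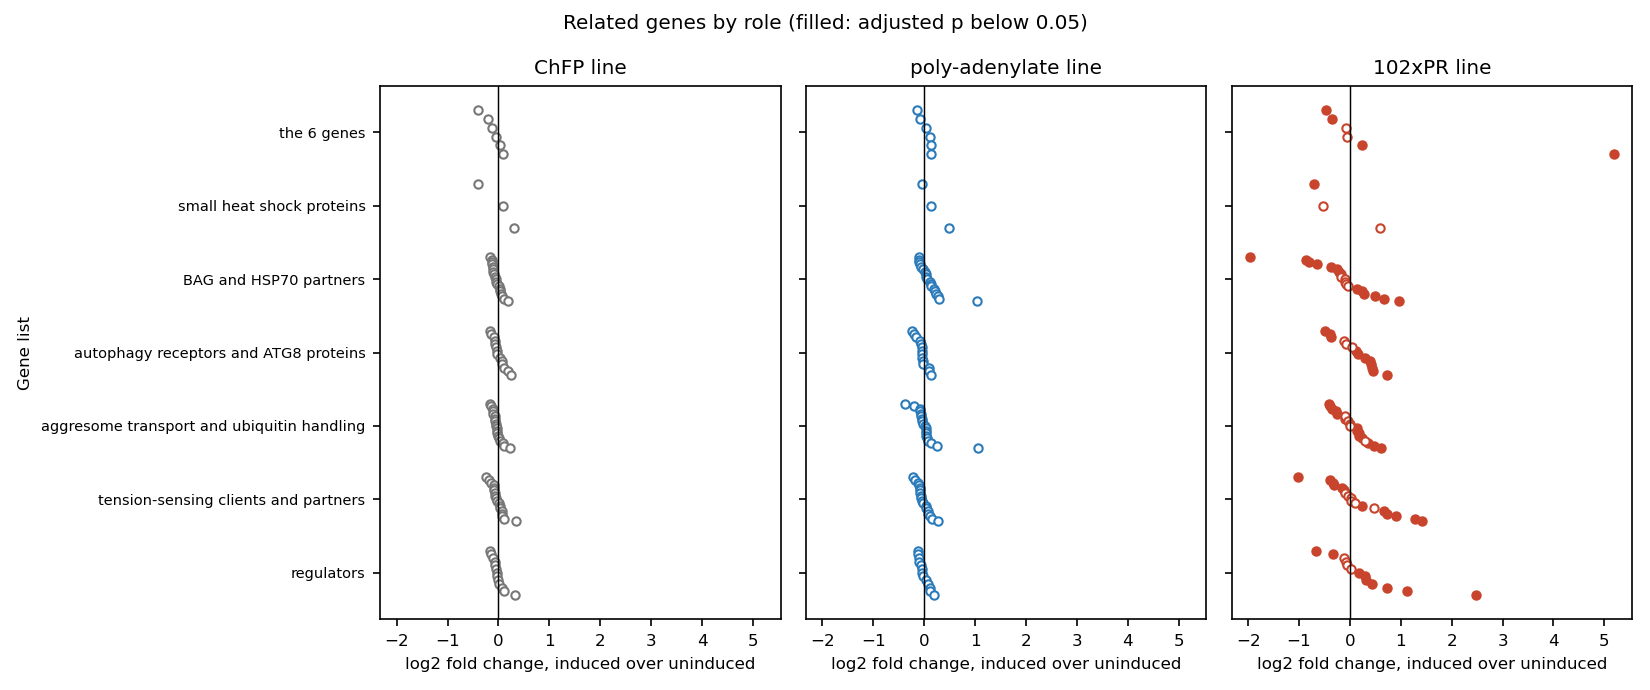
log2 fold change on induction in the ChFP, poly-adenylate and 102xPR lines, for every tested gene of the 6 lists and for the 6 genes. Points are filled where the adjusted p was below 0.05. The filled points are all in 102xPR, where HSPB8 at 5.19 lay to the right of every other gene shown.

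Across libraries the 6 genes did not share a single pattern. Over all 18 libraries, which share lines and depth differences and are dominated by the contrast of induced 102xPR with the rest, HSPB8 correlated with SQSTM1 at a Pearson r of 0.859 on log2 CPM. Over the 15 libraries outside induced 102xPR that r was 0.240. HSPB8 with STUB1 went from -0.794 over 18 to 0.426 over 15, and with HDAC6 from -0.787 to 0.434. HSPB8 with BAG3 was near 0 over both, at -0.03 and -0.06. HSPB1 with HDAC6 was at 0.664 over 18 and 0.607 over 15.

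The genes most like each of the 6 were ranked by the same r. Over 18 libraries HSPB8 was closest to DDX11 (0.987), GPKOW (0.985) and AKIRIN2 (0.985), and over the other 15 to TMEFF2 (0.821), GALNT14 (0.795) and RCAN1 (0.777), with HSPB8 itself at or below 2.62 CPM there. STUB1 was closest to LRP3 (0.979), GRK6 (0.978) and JPT1 (0.978) over 18, and to RAB35 (0.952), MRPS34 (0.951) and SYNGR2 (0.943) over 15. SQSTM1 had SMG5 as its closest gene over both, at 0.981 and 0.946. For HDAC6, ARHGEF25 (0.949 and 0.859) and PLD3 (0.944 and 0.841) were among the closest 3 over both. BAG3 had lower values, with PLAGL2 at 0.779 over 18 and OSBP at 0.887 over 15. HSPB1 was closest to BASP1 (0.903) over 18 and to FXYD5 (0.921) over 15.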

How the data were processed

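Poly(A) RNA of 18 HEK293T libraries, 3 in each of 6 groups, was analysed from 1 table of counts per gene that the authors deposited, whole numbers that were not normalized. RNA was taken from a centrifuged detergent lysate containing cycloheximide, per the labels' protocols, which may lose nuclear RNA, and sequenced as single reads of 100 bp. The submitters' processing notes name HISAT2 2.1.0, featureCounts, cutadapt 3.4, bcl2fastq 2.20.0.422 and DESeq2 1.30.1, and the build hg38. The counting's annotation, its strand setting and its treatment of multi-mapping reads were not given in the sources used here. Genes that overlap others or have near-identical copies are therefore uncertain. The authors' tables of comparisons were not used.

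Of 28394 genes, 550 had no symbol (0.0410% of counts). With edgeR 4.0.16 in R 4.3.3, genes were filtered with filterByExpr at a minimum count of 10 and scaled with TMM factors. A robust quasi-likelihood model over all 18 libraries had 1 term per group and no covariate. The 12 comparisons were the 3 inductions, the 3 differences between them, and the 3 pairs of lines among induced and among uninduced cells. P-values were adjusted by Benjamini-Hochberg over the 15447 genes tested, with a threshold of 0.05. SE is that of the fitted log2 fold change, and CPM uses TMM-scaled totals. The method was run on simulated data in which few genes changed and no library sets were built in. In the 102xPR induction 67.3% of all genes passed, so the simulation does not cover that setting. Level per length divides CPM by the union of GENCODE v29 basic exons. Positions and promoter windows are RefSeq's for GRCh38.p14.

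The 6 genes and all lists were chosen with earlier results of these data known. Of each list, the up to 4 called genes with the smallest adjusted p in the 102xPR induction were named, and for each of the 6 genes the 3 with the highest correlation and a mean log2 CPM of at least 1. A gene named by this rule is not reported here. HSPA8, CRYAA, HSPA1A, HSPA1B and the cell type markers lie outside that rule. Alternatives were other scalings and filters, DESeq2 1.42.0, a replicate block, the library set as a covariate or a subset, only the groups compared, and leaving out each library. The counts for the lists by library set were chosen after seeing the data.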

Additional observations from a re-analysis of the deposited data

Results flagged for a closer look

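Of the 6 genes, 4 responded differently to induction in different lines by an interaction term (edgeR, adjusted p below 0.05). Of all genes, 58.3% were called by the term of 102xPR against ChFP and 58.4% by that against poly-adenylate. The count is thus near the background. HSPB8 responded more in 102xPR than in ChFP by 5.59 and than in poly-adenylate by 5.15 on the log2 scale. STUB1 responded by -0.41 against ChFP and -0.61 against poly-adenylate, and HDAC6 by -0.43 and -0.27. The HDAC6 term against poly-adenylate was lost under other scalings, a minimum count of 50, DESeq2, the library set and when 1 of 5 libraries was left out. SQSTM1 responded more in 102xPR than in ChFP by 0.22. Each construct is represented by 1 stable line, so a difference between lines and a difference between constructs cannot be told apart.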

How the results depend on the processing

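On induction of 102xPR, HSPB8, STUB1, SQSTM1 and HDAC6 kept their direction and their call under every alternative run, and leaving out 1 library gave 4 to 4 called genes of the 6. The same range, 4 to 4, held for 102xPR against ChFP in response and for induced 102xPR against either line. It was 2 to 3 for the response against poly-adenylate, 0 to 0 for the inductions of poly-adenylate and ChFP, 0 to 1 for induced poly-adenylate against ChFP, 0 to 1 for uninduced 102xPR against ChFP and 1 to 1 for uninduced 102xPR against poly-adenylate. The smaller counts depended on the model. For uninduced 102xPR against poly-adenylate, 2 genes were called, against 1, with no filter, with the set as a covariate, within the set of 10 and by DESeq2. For uninduced poly-adenylate against ChFP, 1 was called, against 0, with no filter and by DESeq2. With the set as a covariate, uninduced 102xPR against ChFP, a comparison that coincides with the sets, gave 0, against 1. The poly-adenylate against ChFP response gave 1, against 0, with that covariate. Of the values of single genes under alternatives, 1201 kept their side of the threshold, 26 gained a call, 19 lost one and 2 reversed. The causes were not tested.

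Same-numbered libraries correlated at 0.0021 to 0.069 in the 102xPR induction and at -0.259 to 0.178 elsewhere. In no comparison did every pair exceed 0.1. With 3 libraries per group, these values cannot settle whether the replicate numbers pair the libraries. All 3 libraries correlated best with their own number in the poly-adenylate induction, in induced and in uninduced poly-adenylate against ChFP and in uninduced 102xPR against poly-adenylate, a hint from the data only. With the replicate block, uninduced 102xPR against poly-adenylate gave 2 called genes, against 1, BAG3 being added at 0.20 (adjusted p = 0.0475), and no other count changed. With the block and the library set together, 6 genes were called on induction of 102xPR, against 4 (HSPB1 and BAG3 added, both lower), 5 in its response against ChFP and in induced 102xPR against either line, 6 in its response against poly-adenylate, 2 in poly-adenylate against ChFP, 2 in uninduced 102xPR against poly-adenylate, 1 each in the poly-adenylate induction, induced poly-adenylate against ChFP and uninduced poly-adenylate against ChFP, and 0 in uninduced 102xPR against ChFP. HSPB1 reversed there, to -0.38 in the response of 102xPR against ChFP (0.05 without) and -0.34 against poly-adenylate (0.08 without). The share of all genes called was worked out for the main model only. Counts under the other models therefore have no background beside them and are not results about these genes. HSPB8 outside induced 102xPR rests on few counts, so a small change there was not detectable at this depth.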

Other observations

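BAG6 and YWHAE, partners listed here, had counts that varied widely within groups. BAG6, which escorts ubiquitylated clients to the proteasome, was called lower on 102xPR induction at -1.97 ± 0.53 (adjusted p = 0.00273), from 1.11 to 0.278 CPM, although the groups overlapped. YWHAE, an adaptor protein that binds phosphorylated partners, was at 1.06 ± 0.52 (adjusted p = 0.321) on poly-adenylate induction. Both were chosen after their values were seen. BAG6 rests on 2 to 41 counts per library and is among the genes of its list counted as falling. Whether the counting placed all reads of BAG6 or YWHAE is not known.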
